A study of Mus musculus with 6 samples.

Results

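The genes of the constitutive proteasome were followed in RNA-seq libraries of cells sorted as LSK (Lin- Sca1+ cKit+), the bone marrow fraction that holds stem cells and multipotent progenitors. Members were the rows whose Ensembl identifier maps to a mouse symbol beginning Psma to Psmg and a number, leaving out 5 genes of the immunoproteasome and its activator (Psmb8, Psmb9, Psmb10, Psme1 and Psme2) and 4 pseudogenes. This gave 45 of the 56750 rows. The libraries came from C57BL/6 mice with DSS-induced colitis (DIC), given 2.5% dextran sulfate sodium for 5 days, and from control mice of the same strain, 3 libraries a group. Neither age nor sex is labelled. The labels name 3 mice per group but do not tie each library to a mouse, so the p-values below reflect only how far these libraries spread, which may be technical. Libraries carry their column numbers, 1 to 3 for DIC and 1, 2 and 4 for control.

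The proteasome is the barrel-shaped protease that degrades proteins tagged with ubiquitin. Its core particle is built from rings of alpha subunits (Psma genes), which gate the barrel, and rings of beta subunits (Psmb genes), some of which carry the proteolytic sites. The regulatory particle caps the core: a base ring of ATPases (Psmc genes) unfolds the substrate, and the non-ATPase subunits (Psmd genes) bind ubiquitin, remove it and hold the cap together. In blood-forming and immune cells, Psmb8, Psmb9 and Psmb10 can replace the constitutive catalytic subunits Psmb5, Psmb6 and Psmb7, giving the immunoproteasome.

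The members held 7 alpha and 7 beta subunits of the core, 6 ATPases and 11 non-ATPases of the regulatory particle, 3 activators or inhibitors and 7 assembly chaperones. They also held 2 core subunits of restricted tissues (Psma8 of the testis and Psmb11 of the thymus) and 2 genes that only share the name: Psmc3ip, a meiotic recombination factor named for binding Psmc3, and Psme2b, a copy of Psme2. Psmb11 was listed at 0 in 5 libraries and at 0.03 TPM (transcript abundance per length, scaled to a fixed library total) in control 2, and it did not pass the filter of at least 1 TPM in at least 3 libraries. The other 44 members were tested among 13496 genes.

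Promoter sequence was read for 37 of the 45 members from RefSeq's table for GRCm38.p6, over the 250 bases before the annotated start. Of 6 short motifs searched on both strands, the antioxidant response element TGACNNNGC, the site type through which the factors Nfe2l1 and Nfe2l2 act, was present for the catalytic core subunits Psmb5 and Psmb6, for Psmc6 and Psmd12 of the regulatory particle and for the chaperone Psmd9. It occurred in 16.7% of 12 core promoters and 13.3% of 15 regulatory promoters, and in 10.2% of all 32851 promoters. The ETS-type motif CCGGAAG occurred in 9 of 15 regulatory promoters, those of 8 genes (Psmc1, Psmc2, Psmc6, Psmd2, Psmd4, Psmd6, Psmd11 and Psmd12), in 1 of 12 core promoters (Psma6) and in 6.91% of all promoters. It also occurred in 4 of 12 promoters of the other members (Psmc3ip, Psme3, Psme4 and Psmg1). Of the other motifs, the CCAAT box (CCAAT) occurred in 6 of 12 core and 4 of 15 regulatory promoters and in 33.8% of all. The SP1 box (GGGCGG) occurred in 5 core and 9 regulatory promoters and in 32.7% of all. The E box (CACGTG) occurred in 1 core and 0 regulatory promoters and in 6.02% of all, and a paired interferon-response motif in 1 of each and in 2.98% of all. These are matches of letters, and the table of promoters is not complete. Shown are 2 core promoters with the antioxidant response element, at chr14:54618023-54618115 (Psmb5, minus strand) and chr11:70525237-70525356 (Psmb6, plus strand), and 2 regulatory promoters with the ETS-type motif, at chr11:80428495-80428614 (Psmd11, plus strand) and chr3:95042615-95042774 (Psmd4, minus strand). All are 5′ to 3′ on the gene's strand and end before any annotated exon; capitals mark these 2 motifs on either strand.
Psmb5: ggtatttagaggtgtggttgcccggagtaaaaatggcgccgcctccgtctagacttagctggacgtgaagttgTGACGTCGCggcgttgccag
Psmb6: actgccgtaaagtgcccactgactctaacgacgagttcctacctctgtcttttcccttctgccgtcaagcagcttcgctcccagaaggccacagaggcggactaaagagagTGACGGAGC
Psmd11: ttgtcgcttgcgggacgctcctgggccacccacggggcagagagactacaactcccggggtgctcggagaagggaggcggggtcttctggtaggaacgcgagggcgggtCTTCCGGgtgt
Psmd4: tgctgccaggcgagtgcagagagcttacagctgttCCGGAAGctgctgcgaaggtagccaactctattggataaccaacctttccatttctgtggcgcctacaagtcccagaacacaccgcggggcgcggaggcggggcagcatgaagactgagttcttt

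Several values of the whole series bear on these genes. TPM keeps no depth, so the counting precision behind each value is unknown, and 20474 to 22720 genes lay above 0 in a library. Of the genes that define the sort, Kit was at 54.2 to 99.5 TPM and Ly6a, which encodes Sca1, at 15.5 to 49.9 TPM, while the neutrophil gene S100a8 was at 13283 to 105476 TPM, above both in every library. All 16 neutrophil markers had positive fitted differences, and they took 15.6% to 22.8% of all TPM in DIC against 4.27%, 12.7% and 3.04% in controls 1, 2 and 4. None of the 16 was at 0 in all libraries. Control 2 was therefore close to DIC on this list. The 6 basophil and mast cell markers had negative differences, as most proteasome genes did. The groups did not overlap for any of the 6, where 18.4% of all tested genes were lower in that way. Their median was -1.53, and their summed level was 314 to 498 TPM in DIC and 946 to 3374 TPM in control. Differences were also negative for 5 of 6 tested B lineage and plasma cell markers (median -0.66) and 3 of 3 tested T and NK markers (-0.85). The exception was Jchain, at 132, 26.9 and 55.2 TPM in DIC 1, 2 and 3 and 3.39, 30.5 and 6.68 in controls 1, 2 and 4. The 3 tested T and NK markers were Nkg7, Klrb1c and Ncr1, the last 2 at no more than 5.69 TPM. The T cell genes Cd3e, Cd3d, Cd4, Cd8a and Trac did not pass the filter. Negative differences were found for 5 of 9 sort markers (median -0.19) and 3 of 6 tested macrophage and dendritic markers (-0.12). The 9 erythroid markers had positive differences with a median of 0.95, at a summed 191 to 744 TPM in DIC and 188 to 244 TPM in control, and none of these markers was at 0 in all libraries. The part of these cell types in the proteasome values was not tested beyond the neutrophil alternatives below. In bulk RNA, fewer cells of a type and less RNA per cell cannot be told apart.

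Core subunits were the more abundant part of the proteasome. Averaged over the 6 libraries, on the TPM scale, which is per transcript length, alpha subunits ranged from 173 TPM (Psma2) to 652 (Psma3) and beta subunits from 149 (Psmb7) to 532 (Psmb3). ATPases ranged from 89.4 (Psmc6) to 180 (Psmc3), and non-ATPases from 75.4 (Psmd12) to 197 (Psmd14). Of 14 core subunits, 11 lay above every regulatory subunit. Although each alpha subunit is used equally often in the barrel, the highest alpha transcript was 3.78 times the lowest. The order of the 44 members hardly differed between libraries: Spearman's rho over members was 0.970 to 0.993 for the 15 pairs of libraries, as a description of genes that share each library.

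**Figure D1:**
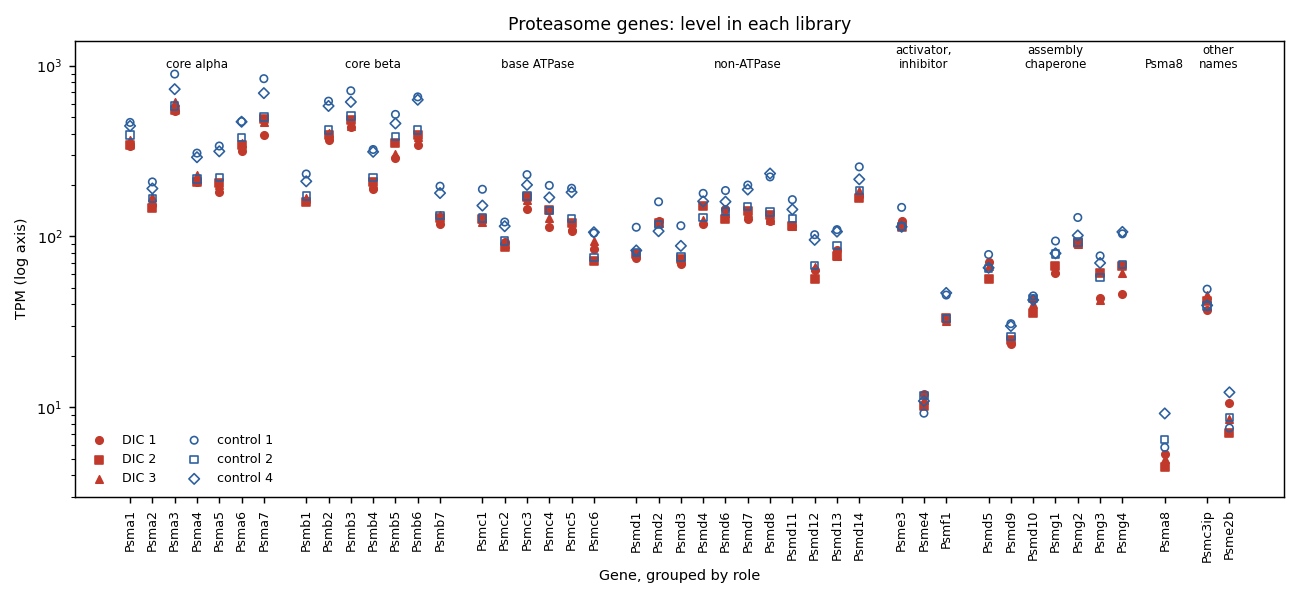
TPM (log axis) of the 44 tested members in each library, grouped by role; filled symbols are DIC and open symbols control libraries. Core subunits lie mostly above regulatory subunits, and controls 1 and 4 lie above the DIC libraries for most subunits, with control 2 close to DIC.

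Across the 44 tested members, values in DIC were mostly below those in control. None was called by limma at an adjusted p under 0.05 (Benjamini-Hochberg over all tested genes): 0 of 44, where 0.0222% of all tested genes were called lower and 0.037% higher. At an unadjusted p under 0.05, 20 of 44 were lower and 0 higher, where 13.8% and 6.43% of all tested genes were. All DIC values were lower than all control values for 27 of 44 members and above for 0, where this held for 18.4% and 7.08% of all tested genes and, for the lower direction, for 38.1% of the 1490 genes with a mean of at least 100 TPM. The fitted difference, DIC minus control in log2(TPM + 1), was negative for 43 of 44 members. It was negative for 58.5% of all tested genes and 80.2% of those with a mean of at least 100 TPM. The members' median was -0.33, beside -0.08 for all tested genes and -0.29 for genes of at least 100 TPM.

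These counts depended on single libraries and on the scaling. The 20 members lower at an unadjusted p under 0.05 were 2 without DIC 1, 13 without DIC 2, 7 without DIC 3, 3 without control 1, 34 without control 2 and 2 without control 4. Among all 13496 tested genes, 1861 were lower, and in the same order 804, 1398, 1105, 1049, 2770 and 977. The members were 8 after quantile normalization, 4 with neutrophil markers removed and 0 with the neutrophil score as a covariate. Of all tested genes, 1193, 674 (of 13852) and 199 were lower in these settings. Neutrophil markers took a larger share in every DIC library than in every control. The fit with the score therefore cannot fully tell group and score apart. Without control 2, limma called 18 of 44 members lower and 0 higher (8.45% and 3.93% of all tested genes), 11 of them in the core and 5 in the regulatory particle. When neutrophil markers were removed and TPM rescaled, the median of all tested genes moved to 0.10 and that of the members to -0.13, with 36 of 44 negative. Relative to all genes the members' median was then -0.23, against -0.25 before. The rescaling multiplies each library by a constant. This relative value was therefore nearly fixed in advance and says nothing about the neutrophil share. With quantile normalization the members' median was -0.13 (39 of 44 negative), or -0.09 relative to all genes. In the fit that included the neutrophil score it was -0.06 (34 of 44 negative), above the -0.10 of all tested genes, of which 67% were negative, and 0.04 relative to them.

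**Figure D2:**
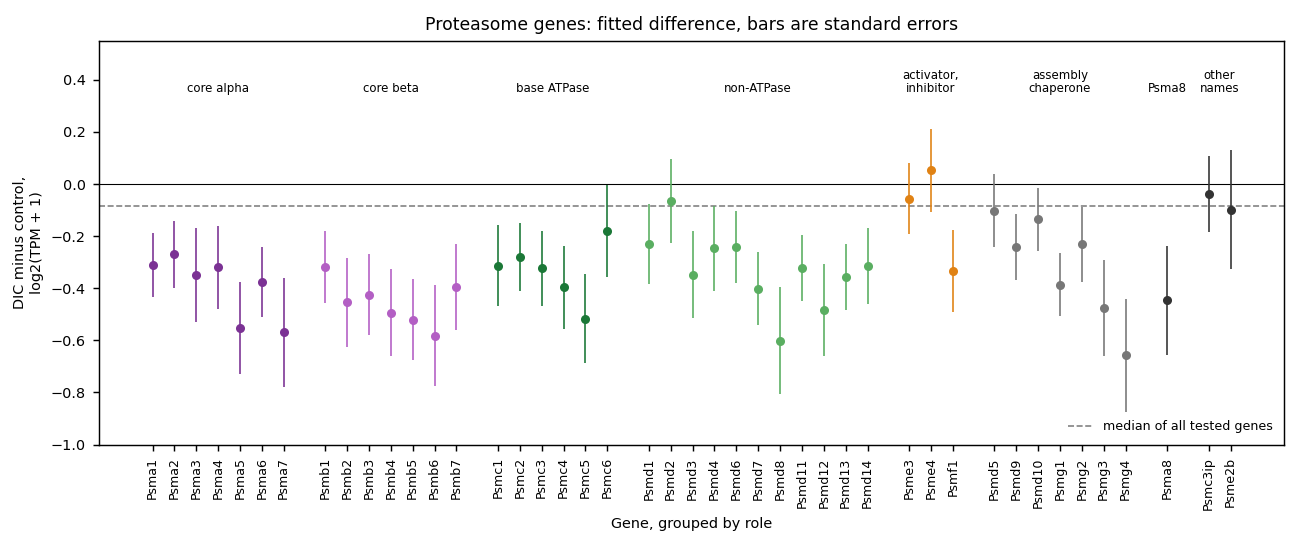
Fitted difference (DIC minus control, log2(TPM + 1)) of each tested member, with its standard error, grouped by role; the dashed line is the median of all tested genes (-0.08). In this scaling all members but Psme4 lie below 0, and no difference passed adjustment.

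In the alpha ring all 7 fitted differences were negative, also after quantile normalization and with neutrophil markers removed. They ran from -0.57 to -0.27 with a median of -0.35, and the groups did not overlap for 4. Beside this count and those by role below, 18.4% of all tested genes were lower without overlap, and 38.1% of those of at least 100 TPM. Beside the counts of negative differences, 58.5% of all tested genes and 80.2% of those of at least 100 TPM were negative. After quantile normalization the alpha median was -0.07, or -0.04 relative to all genes. With the neutrophil covariate 6 of 7 alpha differences were negative, with a median of -0.07. Psma5 measured 181, 204 and 201 TPM in DIC 1, 2 and 3 and 339, 222 and 315 in controls 1, 2 and 4. Controls 1 and 4 were well above all others and control 2 just above DIC (difference -0.55 ± 0.18 (SE), limma adjusted p = 0.212). Psma6 followed the same order at 318, 343 and 353 TPM in DIC against 471, 380 and 470 in control (difference -0.37 ± 0.13, limma adjusted p = 0.218). The most abundant alpha subunit, Psma3, was at 541, 551 and 614 TPM in DIC and 893, 582 and 729 in control, where DIC 3 overlapped control 2. Its difference of -0.35 was -0.20 without control 1. Psma2, the least abundant, was at 152, 147 and 169 TPM in DIC and 209, 167 and 191 in control, overlapping in the same way.

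In the beta ring all 7 differences were negative under the same 3 scalings. They ran from -0.58 to -0.32 with a median of -0.45, and the groups did not overlap for 6. With the neutrophil covariate 6 of 7 were negative, with a median of -0.05. The catalytic sites of the constitutive barrel lie in Psmb5 (chymotrypsin-like), Psmb6 (caspase-like) and Psmb7 (trypsin-like). Psmb5 measured 287, 354 and 306 TPM in DIC and 519, 386 and 459 in control, so that the lowest control lay above the highest DIC library. Its difference was -0.52 ± 0.15 (SE, limma adjusted p = 0.212). Psmb6 measured 342, 394 and 384 TPM in DIC and 657, 420 and 632 in control, again without overlap (difference -0.58 ± 0.19, limma adjusted p = 0.212). Psmb7, the least abundant beta subunit, was at 119, 129 and 134 TPM in DIC and 197, 133 and 180 in control. Here control 2 lay below DIC 3, the one overlap in the beta ring, and the difference of -0.39 was 0.0082 with the neutrophil covariate. Psmb3, the most abundant, was at 435, 479 and 441 TPM in DIC and 713, 508 and 613 in control. Without control 2 all 7 beta and 4 of 7 alpha subunits were called lower by limma, with adjusted p from 0.0202 to 0.046 over the beta ring. In that setting 8.45% of all tested genes were called lower, and 68 of 79 ribosomal proteins were.

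Among the base ATPases all 6 differences were negative, with a median of -0.32, and 4 separated the groups. Psmc5 measured 108, 120 and 116 TPM in DIC and 192, 128 and 182 in control (difference -0.52 ± 0.17, limma adjusted p = 0.212). Psmc4 was at 114, 142 and 128 TPM in DIC and 199, 142 and 169 in control, where DIC 2 and control 2 were level (difference -0.40 ± 0.16, limma adjusted p = 0.234, and 0.01 with the neutrophil covariate). Psmc3, the most abundant ATPase, was at 145, 171 and 163 TPM in DIC and 230, 173 and 200 in control. Psmc6, the least abundant, was at 84.0, 72.0 and 94.4 TPM in DIC and 105, 75.2 and 106 in control. Its groups overlapped, and its difference of -0.18 was the closest to 0 among the ATPases. It was 0.03 with neutrophil markers removed, 0.04 with the neutrophil covariate, and from -0.34 (without control 2) to -0.08 (without DIC 2) when 1 library was left out.

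The non-ATPases spanned a wide range, from -0.60 (Psmd8) to -0.07 (Psmd2), with a median of -0.32. All 11 differences were negative, that of Psmd2 not after quantile normalization or with neutrophil markers removed, and 8 separated the groups. Psmd8, a lid subunit, measured 123, 133 and 125 TPM in DIC and 223, 139 and 234 in control (difference -0.60 ± 0.21, limma adjusted p = 0.213), and its difference was 0.0069 with the neutrophil covariate. Psmd7, the lid partner of the deubiquitinase, measured 127, 140 and 137 TPM in DIC and 200, 150 and 188 in control (difference -0.40 ± 0.14, limma adjusted p = 0.215). The deubiquitinase itself, Psmd14, which cuts ubiquitin from the substrate, was the most abundant at 172, 168 and 185 TPM in DIC and 256, 186 and 216 in control. Psmd12, another lid subunit and the least abundant, was at 63.3, 56.6 and 66.7 TPM in DIC and 102, 67.9 and 95.5 in control. In both the lowest control lay just above the highest DIC library. The difference of Psmd14 was -0.31, and -0.20 without control 1.

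The ubiquitin-binding subunits Psmd2 and Psmd4 did not separate the groups. Psmd2, which holds ubiquitin receptors and shuttle factors at the base, was at 123, 120 and 120 TPM in DIC and 160, 118 and 107 in control, with controls on both sides of DIC. Its difference was -0.07 ± 0.16 (SE, limma adjusted p = 0.838), and it was positive after quantile normalization (0.12), with neutrophil markers removed (0.14) and without control 1 (0.10). Psmd4, which binds ubiquitin chains, was at 118, 150 and 125 TPM in DIC and 179, 129 and 161 in control, where DIC 2 lay above control 2. Its difference of -0.25 was -0.14 without control 1, -0.38 without control 2 and 0.21 with the neutrophil covariate. The other scaffold of the base, Psmd1, was at 74.7, 79.1 and 79.0 TPM in DIC and 113, 80.7 and 82.8 in control. It was named after its values were seen.

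The core and the regulatory particle were compared within libraries, where a scaling of the whole library nearly cancels. The mean log2(TPM + 1) level of the 14 core subunits was 8.04, 8.15 and 8.18 in DIC and 8.76, 8.26 and 8.63 in control, and that of the 17 regulatory subunits 6.75, 6.79 and 6.80 against 7.34, 6.86 and 7.14. The gap between them was 1.29, 1.36 and 1.38 in DIC and 1.42, 1.40 and 1.49 in control, so the gap was narrower in every DIC library than in every control (1.34 ± 0.05 against 1.44 ± 0.04, SD, n = 3 each). As a ratio of summed TPM, core over regulatory was 2.15, 2.24 and 2.27 in DIC and 2.39, 2.31 and 2.44 in control. No test was run on these scores, because the members were chosen with earlier results known.

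The median difference was -0.41 for the core and -0.32 for the regulatory particle, which is -0.09 between them. The gap of mean levels, another measure, had a pooled SD of 0.04 among the libraries of a group. That SD is not an error of the difference between medians. The difference between the particles was -0.05 without control 4, -0.02 after quantile normalization and 0.0017 with the neutrophil score as a covariate, and the regulatory median was -0.21 without control 1. Of 14 core subunits 10 separated the groups and of 17 regulatory subunits 12 did, so the particles were not set apart by that count. Together, control 2 was the lowest control for 30 of the 31 subunits, control 1 was the highest library for 29 and DIC 1 the lowest for 20. Controls also varied more among themselves: over the 44 members the median coefficient of variation of TPM was 16.8% in control and 5.72% in DIC.

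**Figure D3:**
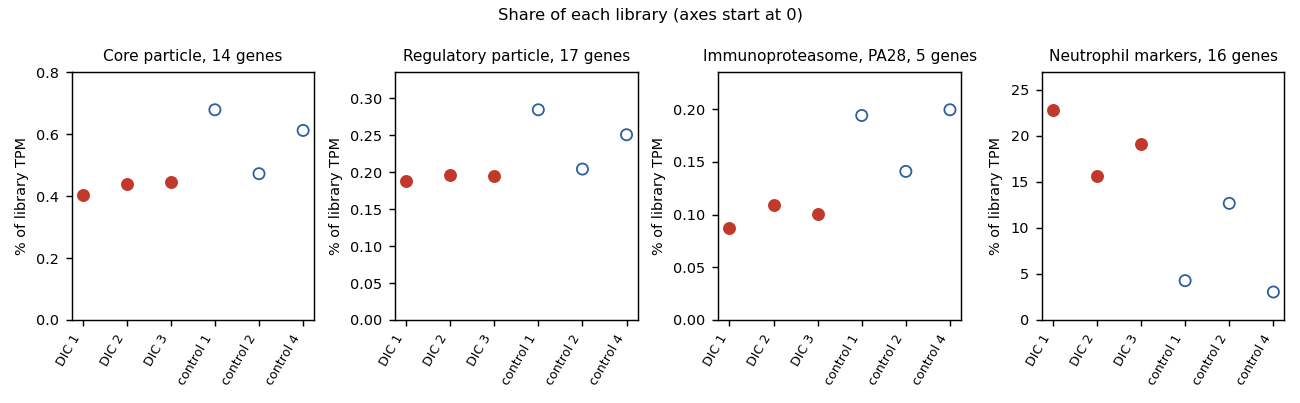
Percent of each library's TPM taken by core particle, regulatory particle, immunoproteasome with PA28, and neutrophil marker genes, 1 point per library, axes from 0. Control 2 lies nearest DIC in all 4 panels, at 0.472% for the core against 0.403% to 0.444% in DIC and 0.612% and 0.678% in the other controls.

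The alternative activators Psme3 and Psme4 had differences close to 0, and the inhibitor Psmf1 a negative one whose sign depended on the fit. Psme3, the nuclear activator ring, was at 123, 114 and 123 TPM in DIC and 148, 115 and 114 in control (difference -0.06 ± 0.14, limma adjusted p = 0.837), and its difference was positive after quantile normalization (0.13), with neutrophil markers removed (0.15) and without control 1 (0.07). Psme4, a single-chain activator, was at 10.1 to 11.9 TPM in DIC and 9.23, 11.7 and 10.9 TPM in control, with the groups intermingled. Its difference of 0.05 was the only positive one among the members, and it was negative with the neutrophil covariate (-0.18), without DIC 1 (-0.0013) and without control 1 (-0.04). Psmf1, which inhibits the core in vitro, was at 32.0, 33.5 and 32.1 TPM in DIC and 45.4, 33.1 and 46.7 in control (difference -0.33 ± 0.16, limma adjusted p = 0.285). Its controls 1 and 4 were high and control 2 lay within DIC, and its difference was -0.13 with neutrophil markers removed and 0.06 with the neutrophil covariate.

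All 7 assembly chaperones had negative differences, with a median of -0.24, and 4 separated the groups; 6 were negative after quantile normalization and 5 with neutrophil markers removed. Psmg1 and Psmg4, which help to build the alpha ring, had the lowest p. Psmg1 measured 61.5, 66.8 and 63.7 TPM in DIC and 94.1, 78.8 and 79.7 in control (difference -0.39 ± 0.12, limma adjusted p = 0.212), one of the members for which control 2 sat with control 4. Psmg4 measured 46.1, 67.4 and 60.9 TPM in DIC and 104, 68.7 and 106 in control (difference -0.66 ± 0.22, limma adjusted p = 0.212), with DIC 2 just below control 2. With the neutrophil covariate the difference of Psmg4 was 0.08. Psmg2, the most abundant chaperone, was at 89.8, 91.5 and 90.7 TPM in DIC and 129, 92.5 and 101.4 in control, with a difference of -0.23 that was -0.09 without control 1. Psmd9, a chaperone of the base and the least abundant, was at 23.4, 24.8 and 24.7 TPM against 30.9, 26.0 and 29.9. Psmd5 and Psmd10, also chaperones of the base and named after their values were seen, had differences of -0.10 and -0.13 and overlapping groups.

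The members outside the common proteasome were low or level. Psma8 was at 5.33, 4.44 and 4.95 TPM in DIC and 5.82, 6.46 and 9.20 in control (difference -0.45 ± 0.21, limma adjusted p = 0.278), and its difference was -0.275 without control 4. It resembles Psma7, so reads may be shared between them. Psmc3ip was at 37.1, 41.9 and 45.2 TPM in DIC and 49.1, 39.1 and 39.5 in control, and Psme2b at 10.6, 7.11 and 8.56 against 7.56, 8.72 and 12.2. Both overlapped between groups (limma adjusted p = 0.898 and 0.827), and their differences of -0.04 and -0.10 changed sign under the rescaling without neutrophil markers (0.16 and 0.09). Exons of 12 members overlap another gene in the GENCODE models of GRCm38, over 10% of exonic bases for Psmb5, Psmb7, Psmd9, Psmd13 and Psmc3ip. The sources used here do not say whether strand was used, which leaves those values uncertain.

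The immunoproteasome genes had a more negative median difference than the constitutive subunits. All 5 separated the groups (18.4% of all tested genes did so in that direction, and 38.1% of those of at least 100 TPM), with differences from -0.98 to -0.62 and a median of -0.81, and 0 were called over all genes (limma adjusted p = 0.212 for each). Psmb8 was at 279, 376 and 348 TPM in DIC and 742, 506 and 752 in control. Psmb9 was at 106, 114 and 112 TPM in DIC and 206, 162 and 209 in control, and Psmb10 at 74.8, 117 and 97.5 against 212, 130 and 182. Psme1 and Psme2, which form the interferon-inducible activator ring PA28, had differences of -0.62 and -0.81. Without control 2 limma called 5 of 5 lower, where 8.45% of all tested genes were, and their median was -0.33 with the neutrophil covariate.

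The ratio of each constitutive catalytic subunit to its replacement does not depend on the scaling of a library. Psmb5 over Psmb8 was 1.03, 0.941 and 0.879 in DIC and 0.699, 0.763 and 0.610 in control, above every control in each DIC library. Psmb6 over Psmb9 was 3.24, 3.46 and 3.41 in DIC and 3.19, 2.58 and 3.02 in control, where DIC 1 and control 1 were nearly level. Psmb7 over Psmb10 was 1.59, 1.10 and 1.38 in DIC and 0.929, 1.02 and 0.985 in control. On the log2 scale the ratios were higher in DIC by 0.46, 0.21 and 0.45, and all 3 separated the groups. A two-sided exact permutation test gave p = 0.1 for each (adjusted p = 0.1 over 3 pairs), the smallest that 3 libraries against 3 can give, so the test could not reach the threshold. The second of these differences was 0.12 without control 2. These ratios were chosen after the values were seen.

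**Figure D4:**
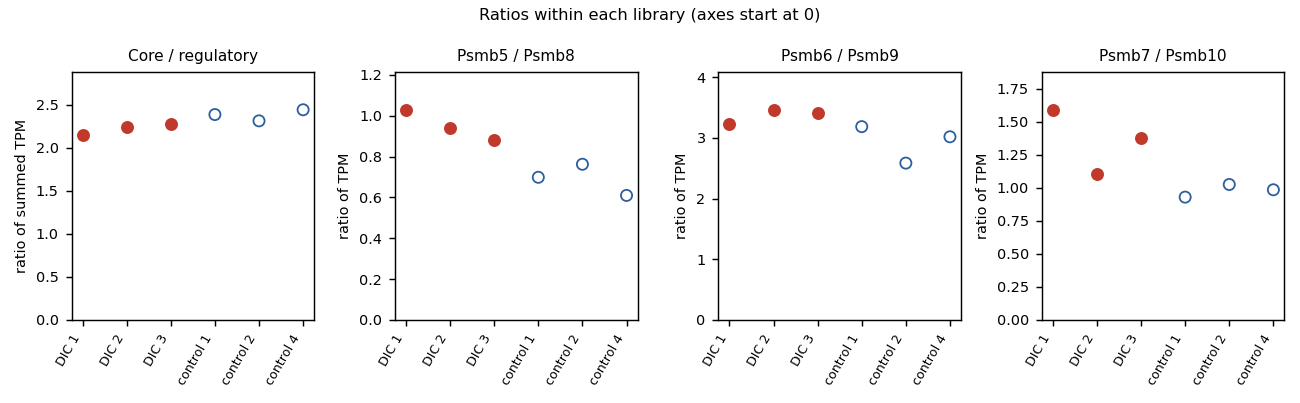
Ratio of summed TPM of core to regulatory subunits, and of each constitutive catalytic subunit to its immunoproteasome replacement, 1 point per library, axes from 0. The core to regulatory ratio is 2.15 to 2.27 in DIC and 2.31 to 2.44 in control, while the 3 catalytic ratios are higher in every DIC library than in every control.

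Of 31 partners of the proteasome outside the name rule, 30 had a row (Paaf1 had none). Of these, 19 had negative and 11 positive differences with a median of -0.22 (58.5% of all tested genes were negative). Limma called 0 partners in either direction (0.0222% of all tested genes lower and 0.037% higher). At an unadjusted p under 0.05 in limma, 5 of 30 partners were lower and 0 higher, where 13.8% and 6.43% of all tested genes were. Without control 2 limma called 6 partners lower, where 8.45% of all tested genes were. Usp14, a deubiquitinase that binds the base, measured 106, 98.5 and 106 TPM in DIC and 153, 120 and 152 in control (difference -0.44 ± 0.13, limma adjusted p = 0.212). Adrm1, a ubiquitin receptor of the regulatory particle, measured 73.6, 83.4 and 91.7 TPM in DIC and 138, 96.9 and 138 in control (difference -0.57 ± 0.17, limma adjusted p = 0.212), unlike the receptors Psmd2 and Psmd4 in that its groups did not overlap. Sem1, a small subunit of the lid, was at 221, 187 and 215 TPM in DIC and 212, 195 and 196 in control, with the groups intermingled. Pomp, the chaperone of beta-ring assembly, was at 96.2, 102 and 97.5 TPM against 156, 104 and 133, with a difference of -0.39 that was -0.25 without control 1. Rps27a, which encodes ubiquitin fused to a ribosomal protein, was at 980, 934 and 1064 TPM against 1479, 1103 and 1370. Nfe2l1, the transcription factor that drives proteasome genes when proteasome activity is low, was at 13.0, 13.0 and 14.4 TPM against 17.3, 11.5 and 15.4, overlapping between groups (limma adjusted p = 0.764).

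As another large housekeeping complex, the cytosolic ribosomal proteins had negative differences in all 79 tested genes (80.2% of genes of at least 100 TPM did), with a median of -0.50. Of these, 56 separated the groups (18.4% of all tested genes did so in that direction, and 38.1% of those of at least 100 TPM). After quantile normalization 77 of 79 were negative. The core particle median of -0.41 lay between the ribosomal median of -0.50 and the -0.29 of genes with at least 100 TPM. No test of the differences between these lists was run.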

How the data were processed

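The authors deposited 1 table of TPM values for 56750 rows and 6 libraries, in which each column summed to 1000000. Per the submitters' processing notes, the tools were fastp 0.19.5, HISAT2 2.1.0 and StringTie 2.1.2 with the build GRCm39, with no annotation release named. StringTie divides reads among near-identical genes. TPM keeps no depth, so no counting error could be given. All columns matched a group; 2 control columns matched no single sample.

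Symbols for 52081 rows came from a table of Ensembl identifiers. The 13496 genes reaching 1 TPM in 3 or more libraries were fitted by limma 3.58.1 (R 4.3.3) on log2(TPM + 1), with group as the model term and the variance trended on the mean. P-values were two-sided and adjusted by Benjamini-Hochberg over all of them at 0.05. Differences on this scale understate changes of low genes. The fit was checked on simulated data.

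Named members were, in each role, the 2 with the lowest p and those with the highest and lowest mean TPM, plus fixed catalytic, receptor and activator genes; of the partners, the 4 with the lowest p and 4 fixed genes. The members and lists were chosen with earlier results of these data known. Alternatives were another pseudocount, other filters, quantile normalization, rescaling without neutrophil markers, no trend, a neutrophil covariate and leaving out each library.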

Additional observations from a re-analysis of the deposited data

How the results depend on the processing

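No paired analysis was possible because the groups share only the number 2 among columns that can be tied to a single sample. The 8 calls over all genes became 5 at a pseudocount of 0.1, 0 without a filter and 0 with the neutrophil covariate, and ran from 0 (without DIC 1 or control 4) to 1671 (without control 2) when 1 library was left out. The split of 5 higher and 3 lower was 5 and 1 after quantile normalization. Members called ran from 0 to 18 over the same libraries, 18 being without control 2, and were 0 in all other settings. Medians of the members, the core and the regulatory particle were -0.127, -0.147 and -0.123 after quantile normalization, -0.125, -0.203 and -0.116 with neutrophil markers removed and -0.057, -0.0584 and -0.0601 with the neutrophil covariate; the cause was not tested. The core minus regulatory difference was -0.0243 after quantile normalization and 0.00171 with the covariate.

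Of 39 named genes under 13 alternatives, 456 of 507 values kept direction and side of the threshold, 21 passed it without control 2, and 30 changed sign, none of them past the threshold. No named gene passed the threshold in the main fit, so the count of 456 does not measure how stable the sizes were. The difference of Psmb6, for example, kept its direction but went from -0.583 to -0.0277 with the neutrophil covariate. With neutrophil markers removed, values with the other sign were Psme3 0.15, Psme2b 0.09, Psmc3ip 0.165, Psmc6 0.0255, Psmd2 0.14 and Nfe2l1 0.0891. With the neutrophil covariate they were Psmf1 0.0584, Psmg4 0.079, Psmc4 0.0123, Psmd8 0.00692, Psmc3ip 0.11, Psme4 -0.182, Psmc6 0.0359, Psmb7 0.00817, Psmd4 0.214, Sem1 -0.0633 and Nfe2l1 0.207. After quantile normalization they were Psme3 0.129, Psmc3ip 0.0649 and Psmd2 0.121. Leaving out 1 library at a time, Psme3 ran from -0.12 to 0.0674 (without control 1), Psme2b from -0.234 to 0.0804 (without control 4; also positive without DIC 2), Psmc3ip from -0.102 to 0.0669 (without control 1; also positive without DIC 1), Psme4 from -0.0359 (without control 1; also negative without DIC 1) to 0.12, Psmd2 from -0.182 to 0.102 (without control 1), Sem1 from -0.00139 (without DIC 1) to 0.119 and Nfe2l1 from -0.26 to 0.0109 (without control 1).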
